A study of Mus musculus with 4 samples.

Results

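Dense clusters of glucocorticoid receptor (GR) regions in mouse liver after dexamethasone were defined from the measured region calls: dexamethasone regions on chromosomes 1 to 19 and X were chained wherever consecutive centres lay at most 12500 bp apart, and chains of 6 or more regions were kept. This gave 445 clusters with 3338 member regions, of 31286 regions on these chromosomes and 31343 in all. GR ChIP-seq was performed on liver from male mice aged 6 to 8 weeks, collected at ZT18, which is 18 h after lights on, and 1 h after an intraperitoneal injection. The ZT18 Dex group (2 libraries) received water-soluble dexamethasone at 1 mg/kg, and the ZT18 Vehicle group (2 libraries) received cyclodextrin. Labels give every mouse the genotype Hnf4a fl/fl Alb-Cre +/-, in which Cre under the albumin promoter would delete Hnf4a, the gene of a hepatocyte transcription factor, in hepatocytes, whereas the study's methods describe C57BL/6 mice, so the genotype behind all 4 libraries is not settled. Each library pooled several immunoprecipitations. Vehicle replicate 1 was the deepest, with 91494606 reads, and Vehicle replicate 2 the shallowest, with 29179899, while the Dex libraries held 64169077 and 65097597. Because whole liver was used, binding in more cells and stronger binding per cell cannot be told apart.

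GR is a nuclear receptor that enters the nucleus when bound by glucocorticoid and recognises the glucocorticoid response element (GRE), an inverted repeat of a short element around a spacer. It also associates with chromatin through other bound factors and at a single copy of that element. In liver it is known for inducing genes of gluconeogenesis and amino acid breakdown and for modulating acute phase genes, and many of its target genes carry several GR regions spread over introns and flanking DNA.

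A GRE was searched as GNACANNNTGTNC on both strands within 200 bp around each region centre, and a strict GRE as GAACANNNTGTTC. The windows below show GREs from clusters that the results turn on: the 3 clusters with 3 GRE-holding members (Fkbp5, Zbtb16 and Tsc22d3), then G6pc, Hpd, Mgll and Bcl2l1. Each is given 5′ to 3′ on the + strand of GRCm38 (mm10), with the GRE in capitals.
Fkbp5, chr17:28513879-28513939: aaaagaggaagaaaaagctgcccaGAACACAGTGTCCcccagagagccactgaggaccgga
Fkbp5, chr17:28518156-28518216: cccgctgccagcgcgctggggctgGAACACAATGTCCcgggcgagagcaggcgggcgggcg
Fkbp5, chr17:28519008-28519068: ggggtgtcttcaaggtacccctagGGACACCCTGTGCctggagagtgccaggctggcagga
Zbtb16, chr9:48736484-48736544: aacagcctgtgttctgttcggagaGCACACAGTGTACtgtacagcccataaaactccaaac
Zbtb16, chr9:48737578-48737638: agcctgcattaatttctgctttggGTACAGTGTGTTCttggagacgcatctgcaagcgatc
Zbtb16, chr9:48740240-48740300: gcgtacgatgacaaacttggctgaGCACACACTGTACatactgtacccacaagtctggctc
Tsc22d3, chrX:140505942-140506002: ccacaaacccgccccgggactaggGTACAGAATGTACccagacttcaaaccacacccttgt
Tsc22d3, chrX:140507798-140507858: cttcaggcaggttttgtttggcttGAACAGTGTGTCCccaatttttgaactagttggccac
Tsc22d3, chrX:140513531-140513591: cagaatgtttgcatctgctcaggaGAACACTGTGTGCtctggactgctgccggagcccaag
G6pc, chr11:101360860-101360920: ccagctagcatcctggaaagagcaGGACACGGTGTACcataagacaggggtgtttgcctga
G6pc, chr11:101362362-101362422: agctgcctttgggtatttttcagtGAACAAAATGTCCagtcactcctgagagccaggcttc
Hpd, chr5:123186063-123186123: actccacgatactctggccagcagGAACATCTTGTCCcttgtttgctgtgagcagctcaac
Mgll, chr6:88745077-88745137: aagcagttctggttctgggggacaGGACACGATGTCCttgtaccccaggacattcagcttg
Bcl2l1, chr2:152820445-152820505: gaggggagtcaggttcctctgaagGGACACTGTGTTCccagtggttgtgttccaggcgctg

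In the third Zbtb16 window a further GRE, GTACATACTGTAC, overlaps the one in capitals and is left in lower case there. None of the printed elements met the strict pattern, which 8 members did. Among all members 100 (3.0%, 95% Wilson interval 2.47 to 3.63) held a GRE within 200 bp, with 104 matches, against 2.67% of regions outside clusters and 2.70% of all regions. A GRE was found in 84 clusters, and 13 clusters held GREs in at least 2 members.

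Most chains were short. Of 18341 chains, 11712 were a single region, 364 had exactly 5 regions and 180 had exactly 6. There were 58 clusters with 10 or more members, and the longest had 21. The clusters spanned 13.2 to 114 kb (median 31.9 kb), and the members covered 11.9% of the length they spanned. The median gap between neighbouring members was 5.01 kb, with 61 gaps over 12 kb and 22 cluster edges that had a further region within 13 kb, so these edges rest on the chosen distance. Of the gaps, 244 (8.43%) were under 1 kb, where neighbouring calls may be parts of 1 broader region. Just inside the size threshold, chains of 6 had a median of 913 and 1211.5 summed reads in Dex replicates 1 and 2 and spanned 26.2 kb. Just outside it, chains of 5 had 663.5 and 852.5 reads over 21.2 kb.

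**Figure D1:**
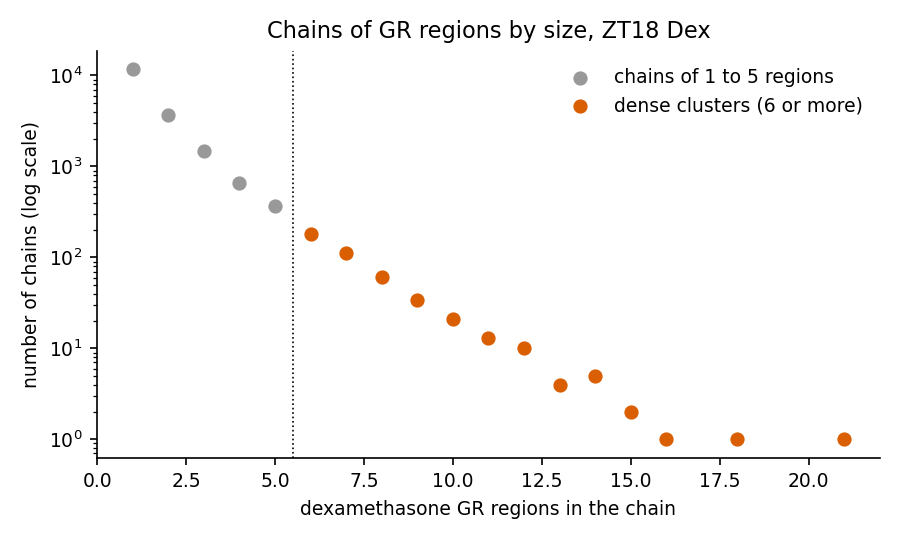
Number of chains (log scale) by the number of dexamethasone GR regions in the chain; each point is 1 chain size, grey for chains of 1 to 5 regions and orange for the dense clusters of 6 or more, and the dotted line is the threshold. The number falls steadily from 11712 single regions to 180 chains of 6 and a largest chain of 21, with no break at the threshold.

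The clusters lay around genes of liver metabolism and secreted proteins as well as broadly used genes. Each member was assigned to the protein-coding gene with the nearest transcription start site (TSS), which need not be a gene it acts on, and a cluster is called by the gene nearest to most of its members. Together 662 genes were nearest to a member, and 274 clusters had all members nearest to 1 gene. The share of regions in clusters ranged from 6.73% on chromosome 15 to 16.2% on chromosome 19, and the X chromosome held 3 clusters.

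The longest cluster ran over 114 kb inside Rbm47 (chr5:66042729-66156864), which encodes an RNA-binding protein. All 21 members lay within the gene body, with 16 in introns and 5 over annotated promoters of its transcripts, and the summed reads were 3100 and 3999 in Dex replicates 1 and 2. Member signal is given as RPKM (reads scaled to region length in kb and to the library total). It ranged from 2.38 to 7.60 in Dex replicate 1 and from 2.41 to 12.8 in replicate 2. The region with the highest mean RPKM held 196 and 336 of the summed reads. Its mean RPKM was 2.26 times the median member of the cluster, where the median of this ratio over all clusters was 1.64. A second long cluster, 18 regions over 112 kb, was called by Dhrs3, a retinaldehyde reductase gene, but 12 of its members lay inside the neighbouring gene Vps13d. Its summed reads were 3014 and 4265. The Shb cluster, around the gene of an adaptor protein of tyrosine kinase signalling, held 16 regions in 78.6 kb, all within the gene, with 3255 and 4311 reads. At Scarb1, which encodes the hepatic high-density lipoprotein receptor, 15 regions (11 of them in the gene body) held 3549 and 4671 reads.

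Clusters at plasma protein genes ranged from long to short. At Serpina1a, Hp and Saa1 they held 6, 6 and 7 regions over 13.2, 20.8 and 19.6 kb. At Alb, encoding serum albumin, 15 regions spanned 72.5 kb, of which 10 were intergenic, 12 were nearest to Alb and 2 were nearest to Afp, the alpha-fetoprotein gene. The strongest mean signal was at -13.1 kb from the Alb TSS (negative values are upstream), with 6.16 and 7.40 RPKM in Dex replicates 1 and 2. The region over the Alb promoter itself was among the weakest, with 1.07 and 2.90 RPKM. The fibrinogen locus held 14 regions over 53.2 kb, with 5 nearest to Fgg, 5 to Fgb and 3 to Fga, the genes of the fibrinogen chains. Within it, the regions over the Fgg, Fga and Fgb promoters had 7.05, 7.79 and 4.49 RPKM in Dex replicate 1 and 10.7, 10.8 and 6.15 in replicate 2. A cluster of 14 regions lay among the Mup genes, which encode the major urinary proteins, and its signal was lower, at 1.59 to 3.83 RPKM in replicate 1. The median share of repeat-masked bases in its members was 32.7%, against 8.44% over all members, and 5 of the 14 exceeded 50%. Whether repeated sequence plays a part in this signal was not tested. Apolipoprotein genes had 3 clusters: 11 regions around Apoc2, Apoc1, Apoc4 and Apoe, 9 around Apoa1, Apoa4 and Apoc3 that extended into Sik3, and 9 around Apoa2 and Nr1i3.

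**Figure D2:**
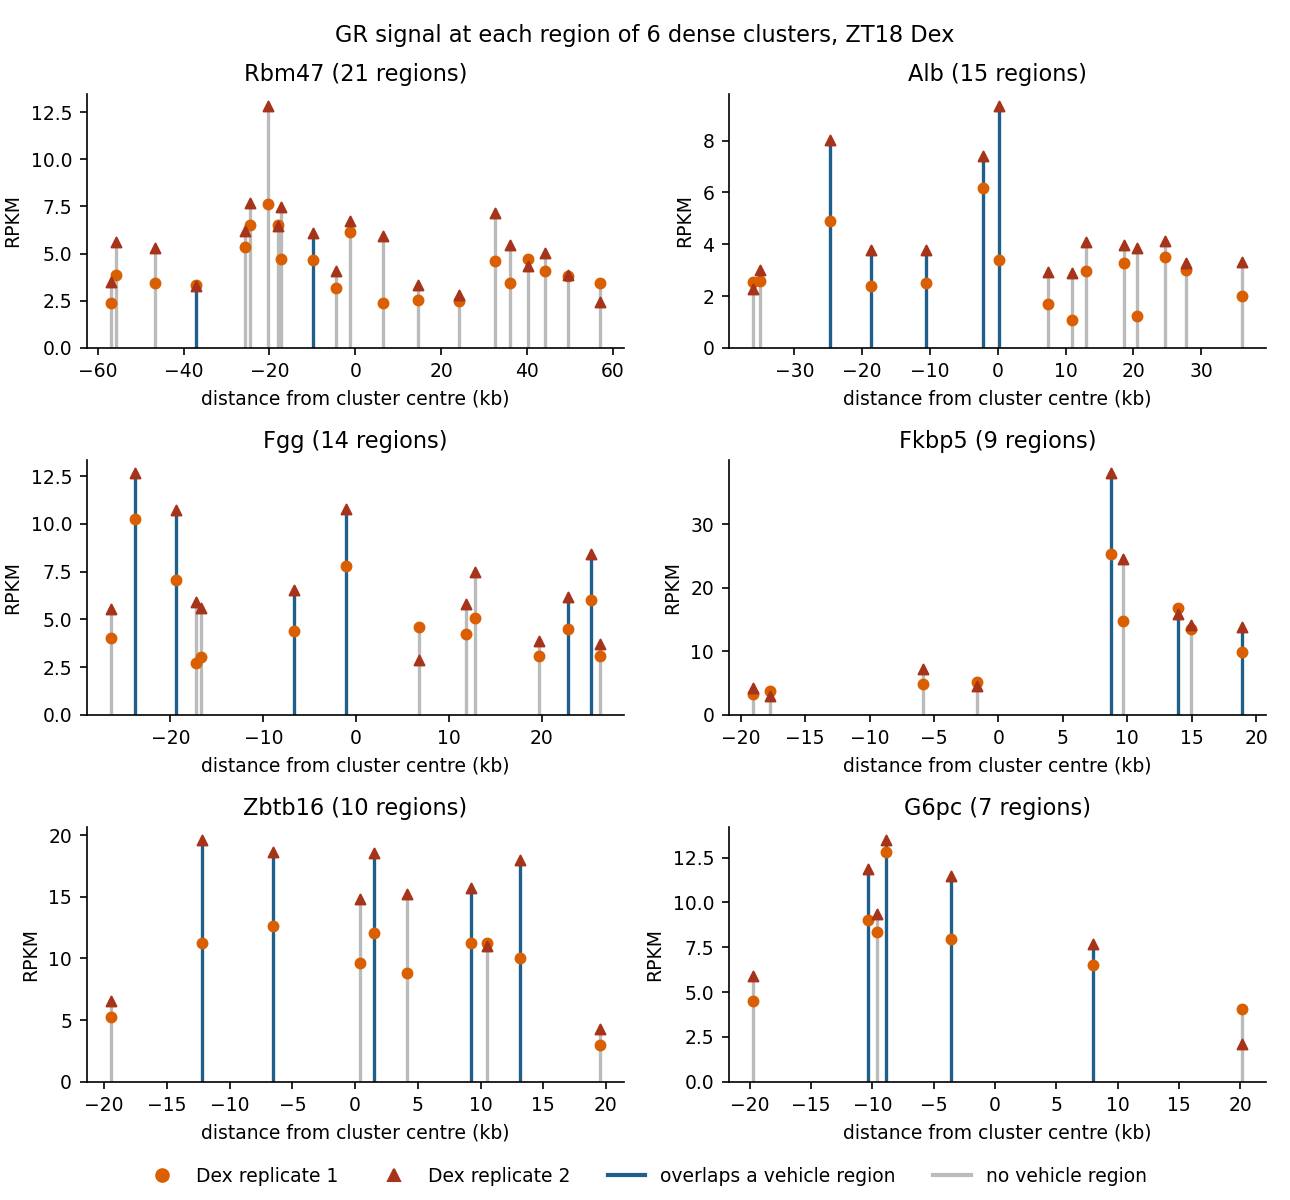
GR signal (RPKM) at each region of the Rbm47, Alb, Fgg, Fkbp5, Zbtb16 and G6pc clusters against distance from the cluster centre in kb; orange circles are Dex replicate 1, dark red triangles Dex replicate 2, and a blue stem marks a region that overlaps a vehicle region. At Fkbp5 the 5 regions on the right reach 9.84 to 25.3 RPKM in replicate 1 against 3.28 to 5.23 in the other 4, whereas the Rbm47 regions form a long row of moderate signal.

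Known direct glucocorticoid targets were often the nearest gene. Of 30 such genes, 18 were nearest to a member, in 21 clusters, against 3.05% of 21728 protein-coding genes and 6.02% of the 11002 genes nearest to any dexamethasone region. They were Fkbp5, Tsc22d3, Dusp1, Zbtb16, Ddit4, Tat, Mt1, Mt2, Pck1, Cdkn1a, Errfi1, Gadd45b, Gadd45g, Nfkbia, Angptl4, Igfbp1, Pdk4 and Bcl6. The lists were chosen with earlier results of these data known, so these counts are a description. Fkbp5 encodes a co-chaperone that restrains GR, and its cluster had 9 regions over 38.5 kb with 3300 and 4539 summed reads. Signal at Fkbp5 was uneven, with the strongest region, at -1.56 kb from the nearest transcript start, reaching 25.3 and 38.1 RPKM in Dex replicates 1 and 2. The 3 Fkbp5 regions with a printed GRE had 14.7, 16.8 and 13.5 RPKM in replicate 1 and 24.4, 15.9 and 14.1 in replicate 2. A second chain of 7 regions was also nearest to Fkbp5.

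More than 1 cluster was called by Zbtb16, the gene of the zinc finger repressor PLZF. The one described here had 10 regions over 39.4 kb, all within introns of the gene. The 9 regions assigned to Zbtb16 lay 80.3 to 112 kb from the nearest start. The 8 inner regions had 8.82 to 12.6 RPKM in replicate 1 and 11 to 19.6 in replicate 2. The outermost pair was weaker, at 5.26 and 2.94 RPKM in replicate 1 and 6.56 and 4.28 in replicate 2. Tsc22d3 encodes GILZ, a leucine zipper protein that opposes inflammatory signalling. Its 14 regions ran over 51.8 kb at the X-linked locus, 12 of them intergenic, and the 3 GRE-holding regions stood 29.7 to 37.2 kb from the TSS, away from the 2 promoter regions. Gadd45g, a stress-response gene, was nearest to 2 separate clusters: 7 regions that included the gene and 13 regions at up to 226 kb from it, a distance at which the nearest-gene name says little. The regions nearest to Dusp1, the gene of a MAP kinase phosphatase, were part of a cluster of 12 that lay inside Ergic1, with 1 member assigned to Dusp1. Genes of the list that were nearest to no member included Per1, Klf9, Sgk1 and Cebpb.

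Metabolic genes showed smaller clusters. In gluconeogenesis and glycogen metabolism 6 of 18 genes were nearest to a member (G6pc, Pck1, Pcx, Foxo1, Ppp1r3c and Slc2a2). G6pc, encoding the catalytic subunit of glucose-6-phosphatase, had 7 regions over 40.5 kb, and both GRE regions lay upstream, at -5.19 kb (12.8 and 13.5 RPKM in Dex replicates 1 and 2) and -6.63 kb (8.99 and 11.9). The region over the G6pc start had 7.94 and 11.5 RPKM. Pck1, encoding cytosolic phosphoenolpyruvate carboxykinase, had a cluster of 8 regions with 1920 and 2648 summed reads. Amino acid catabolism and urea cycle genes numbered 8 of 20 (Tat, Tdo2, Hpd, Sds, Sdsl, Gls2, Gpt2 and Cps1). At Tat, the tyrosine aminotransferase gene, all 8 regions were intergenic, and the strongest, at -2.55 kb, had 11.2 and 18 RPKM. At Hpd, which encodes the next enzyme of tyrosine breakdown, the strongest of 6 regions was the GRE region shown above, with 16.1 and 17.8 RPKM. All 6 regions lay inside the overlapping gene Psmd9, and only 1 lay inside Hpd.

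For the other hepatocyte lists, 12 of 20 secreted protein genes, 12 of 24 acute phase and inflammation genes and 10 of 20 growth hormone and insulin signalling genes were nearest to a member, among them Ttr, Trf, Saa1, Orm1, Hp, Stat5b, Insr, Irs2 and Igf1. Hepatocyte transcription factors numbered 6 of 20 (among them Onecut1, Nr5a2 and Nr1i2), bile acid and cholesterol genes 5 of 20, lipid metabolism genes 5 of 20 and clock genes 5 of 19 (among them Per2, Rora and Hlf). Per2, a core clock repressor, had 8 regions with 1835 and 2312 reads, of which 6 lay in the gene. Markers of other cell types gave 1 of 20 endothelial and stellate markers (5%, Lyve1) and 2 of 10 cholangiocyte markers (20%, among them Sox9). Among all protein-coding genes the share was 3.05%. The counts were 0 of 15 for Kupffer cell and macrophage markers and 0 of 24 for annotated genes of other tissues. Of those 15 markers only 2 were nearest to any dexamethasone region, and at the all-gene share such short lists cannot show a deficit. The cluster named by Sox9 lay 335 to 366 kb from that gene.

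Several families of neighbouring genes shared a cluster. Families were taken by symbol prefix and chosen after the values were seen. Of 18 genes with symbols starting with Gsta, Gstm, Gstp or Gstt, 8 were nearest to a member. Of 16 genes with symbols starting with Apoa, Apob, Apoc, Apoe or Apoh, 8 were, all of them apolipoprotein genes. These prefixes can take in genes that are not apolipoproteins and leave others out, so 16 is not a count of apolipoprotein genes. Acyl-CoA thioesterase genes gave 5 of 13, cytochrome P450 genes 11 of 100 and olfactory receptor genes 1 of 1134. The nuclear factor I genes Nfia and Nfib, which are not given here as neighbours, together had 33 members in 5 clusters. Counts can be uncertain where regions share sequence. This held for 37 members in 19 clusters, with at least 95% identity over 200 bp or more to another dexamethasone region. Of these members 6 were in the Serpina1c cluster and 4 in the Acot1 cluster.

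The densest clusters were not the longest. Acsm1, encoding a medium-chain acyl-CoA synthetase, had 7 regions in 14.8 kb, or 4.72 per 10 kb, with 787 and 1061 summed reads. Next came Galnt2 (4.69 per 10 kb), a glycosyltransferase gene, then Auh, Rhobtb1, Serpina1a and Ttc39c with 4.49 to 4.56. Among these the summed reads were highest at Galnt2, with 1680 and 2267, and lowest at Serpina1a, with 760 and 893.

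Members had stronger signal than other dexamethasone regions. Membership rested on the positions of regions that had all passed the same call on dexamethasone libraries, so this is given as a description. The median RPKM of members was 4.00 and 5.09 in Dex replicates 1 and 2, against 2.83 and 3.30 outside clusters. Members made up 10.7% of regions and held 14.0% and 14.8% of the reads in regions. The median rose with chain size in both libraries, from 2.53 and 2.83 RPKM for single regions to 4.12 and 5.37 in chains of 10 or more. Members also lay over promoters less often, at 24.7% (95% Wilson interval 23.3 to 26.2) against 34.5% outside, and in introns more often, at 43.9% against 36.1%. Promoters were taken as the 2000 bp before and the 200 bp after each TSS of the annotation. Outside promoters the GRE share was 3.30% in members and 3.45% in other regions, and over promoters 2.06% and 1.17%. No difference between these shares was tested, since regions are not replicates.

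Shares of members with other motifs were close to those outside clusters. The single GRE arm AGAACA was present in 21.7% of members and 18.9% of other regions, the C/EBP motif TTGCNNAA in 15.0% and 12.8%, the FOXA motif TGTTTAC in 5.15% and 4.23%, the STAT motif TTCNNNGAA in 7.76% and 6.56% and the AP-1 motif TGANTCA in 6.38% and 6.06%. The HNF4A motif CAAAGTCCA was found in 1.56% and 1.38%, and the E-box CACGTG, the element bound by clock factors, in 3.68% and 4.42%. The long consensus motifs of HNF1 and NFI were too rare to compare, with 0 matches in members and 1 and 12 in the other 27948 regions. The single arm can lie within a GRE, so those shares overlap.

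Within a cluster the signal was unequal. The strongest member had a median of 2.81 times the mean RPKM of the weakest (1.23 to 13.4 over clusters) and held a median of 22.4% and 23.2% of the cluster's reads in Dex replicates 1 and 2. In 295 clusters (66.3%) the same region was strongest in both libraries. The strongest member was at an end of the chain in 110 clusters (24.7%), while end positions made up 26.7% of members, and the weakest was at an end in 195 (43.8%). Of the strongest members 29 (6.52%) held a GRE, against 71 (2.45%) of the other 2893 members.

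The summed signal followed the same order in both Dex libraries. Over the 445 clusters Spearman's rho was 0.975, given as a description since all points share the 2 libraries. Dex replicate 2 exceeded replicate 1 in 439 clusters, with a median log2 ratio of 0.38, while it was 0.27 over all regions. The cluster farthest the other way was at Mid1, next to the pseudoautosomal boundary of X, with 54.0 and 32.5 RPM and a log2 ratio of -0.73. By summed reads scaled to the library total (RPM) the strongest cluster was at Sfi1 (175 and 174), followed by Ptpn1 (90.4 and 127), Hjurp (80.1 and 93.2), Pim3 (68.6 and 81.4), Zmiz1 (63.1 and 81.0), Scarb1 (55.3 and 71.8), Zbtb16 (48.9 and 74.0) and Fkbp5 (51.4 and 69.7). The Ptpn1 cluster, called by the gene of a tyrosine phosphatase that acts on the insulin receptor, had its strongest region at -87.7 kb, with 25.9 and 38.1 RPKM.

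**Figure D3:**
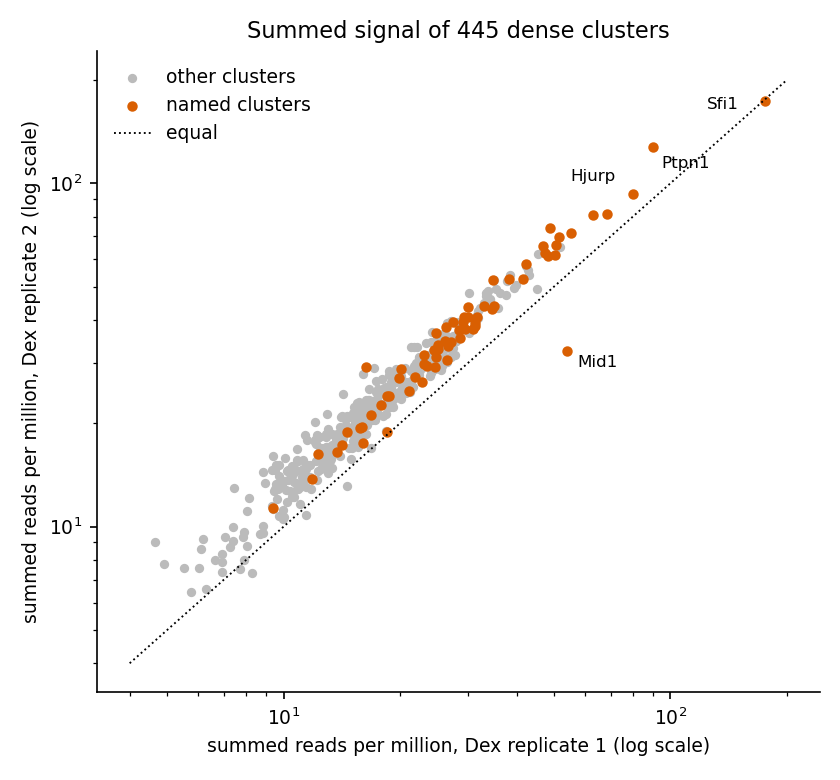
Summed RPM (reads scaled to the library total) of the 445 dense clusters in Dex replicate 1 and Dex replicate 2 (both log scales), with orange points for clusters named by the fixed rule and a dotted line of equal values. Nearly all clusters lie above the line, Sfi1 sits on it at the upper end (175 and 174), and Mid1 lies below it (54.0 and 32.5).

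In most clusters few members overlapped a GR region of vehicle-treated mice. The vehicle set held 5883 regions, and 712 of the 3338 members (21.3%, 95% Wilson interval 20 to 22.8) overlapped one by at least 1 bp, against 17.9% of regions outside clusters. There were 94 clusters with no such member, 153 with 1 and 41 with 4 or more. The strongest member overlapped a vehicle region in 258 clusters (58.0%), whereas 454 of the other 2893 members did (15.7%). Overlapping members had a median of 6.06 and 8.10 RPKM in Dex replicates 1 and 2, and the others 3.66 and 4.63. Each treatment had a single region set, for which ZT6 libraries were used as well as ZT18 ones, so a region without a vehicle counterpart does not show absence of GR at ZT18 in vehicle, and these counts have no replicate check.

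**Figure D4:**
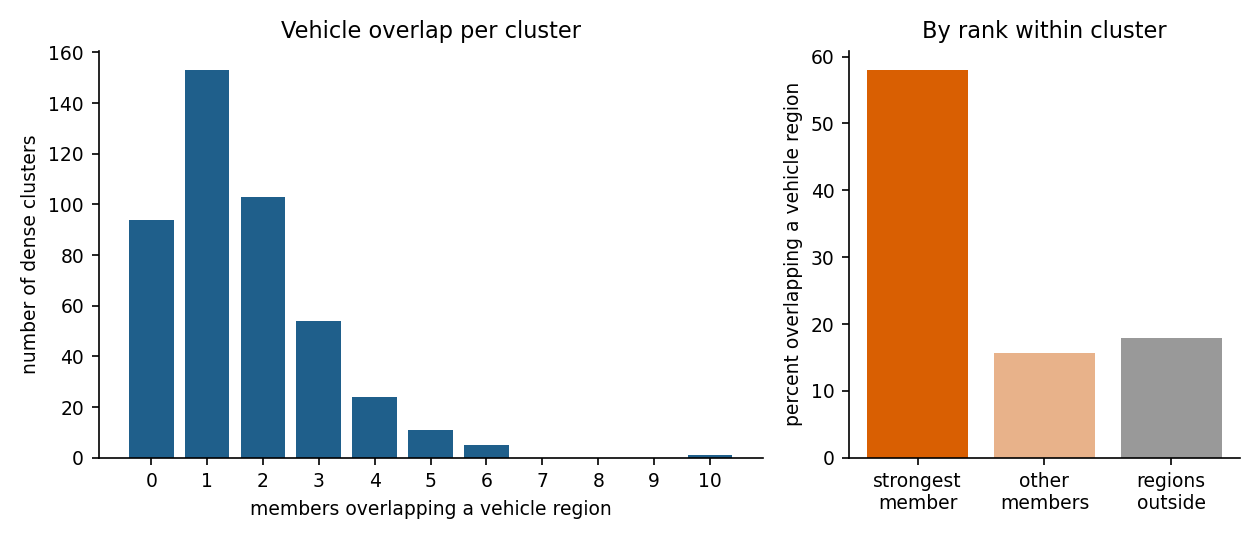
Left, number of dense clusters by how many of their members overlap a vehicle region; right, percent of regions that overlap a vehicle region, for the strongest member of each cluster, the other members and regions outside clusters. Most clusters have 0 to 3 overlapping members, and the strongest members overlap in 58.0% of clusters against 15.7% of the other members.

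The fibrinogen cluster had 6 of 14 members overlapping a vehicle region, including the regions over all 3 fibrinogen promoters, and the Alb cluster had 5 of 15, all upstream of the gene. At Fkbp5 3 of 9 overlapped and at Rbm47 2 of 21. The clusters without any vehicle region that had most reads were at Ppard (6 regions, 1761 and 2565 reads in Dex replicates 1 and 2), which encodes a fatty acid-sensing nuclear receptor, and at Elmsan1 (1484 and 2055), Mical3 (1506 and 1909), Fam222a (1476 and 1934) and Ccny (1047 and 1894). The Auh and Serpina1a clusters likewise had none.

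The same chaining rule applied to the vehicle set gave 3 clusters with 23 regions, and each coincided with a dexamethasone cluster. They were at Sfi1 (11 vehicle regions), Rab11fip4 (6) and Mid1 (6). Mid1 was the 1 cluster in which every member overlapped a vehicle region.

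To compare Dex with Vehicle, dexamethasone regions overlapping a single vehicle region, itself overlapping no other, were fitted with edgeR's quasi-likelihood test on reads with library total and region width as offset, over all 5665 such regions. Among these were 707 members, of which 126 (17.8%) were higher after Dex at an adjusted p under 0.05 and 0 lower. Over all shared regions 11.8% were higher. The Dex region of a shared member was a median of 1.45 times as wide as its vehicle counterpart, and without the width correction 596 members were higher and 2 lower. The Dex libraries also chose the members, so the difference between these shares is not read as a result. At an unadjusted p under 0.05, 340 members were higher and 1 lower, and DESeq2 called 66 higher and 7 lower. TMM scaling gave 74 higher and 11 lower. The median log2 difference was 0.74 in shared members and 0.43 in all shared regions, and with TMM scaling 0.27 and -0.04, so directions hold relative to library totals. Most of the 126 calls did not hold when any 1 library was left out. Such a fit sets 1 library against 2 and has less power, so this loss cannot show whether calls rest on 1 library. The median log2 difference in shared members was 0.54 without Vehicle replicate 1 and 0.94 without Vehicle replicate 2. It was 0.93 without Dex replicate 1 and 0.50 without Dex replicate 2. Replicate 2 had the higher signal in Dex and in Vehicle alike (median log2 0.36 and 0.38 in members), and the part of immunoprecipitation efficiency in these values was not tested.

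Reads were also summed over the shared regions of each cluster, for 350 clusters, and fitted among 4794 loci. Of these clusters 49 (14.0%) were higher at an adjusted p under 0.05, against 11.5% of all loci, and 0 lower. At an unadjusted p under 0.05 there were 150 higher and 0 lower, and DESeq2 called 51 higher and 4 lower. The Dex values were both above the Vehicle values in 267 clusters (76.3%) and both below in 6, compared with 50.7% and 4.90% of all loci. The median log2 difference was 0.72, against 0.41 over all loci, and 336 clusters had a positive value. With TMM scaling these medians were 0.29 and -0.04. The Dex libraries also chose the clusters, so differences between clusters and all loci are not read as a result. Most of the 49 cluster calls likewise did not hold when any 1 library was left out. The cluster calls named next did not hold without Dex replicate 2, in a fit with less power. The median log2 difference in clusters was 0.54 without Vehicle replicate 1 and 0.97 without Vehicle replicate 2. It was 0.93 without Dex replicate 1 and 0.49 without Dex replicate 2.

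Most of the largest increases rested on 1 shared region. At Bcl2l1, encoding the survival factor BCL-XL, the 1 shared region had 2.98 and 3.70 RPKM in Vehicle and 11.2 and 16.2 in Dex. The groups did not overlap, and the log2 difference was 2.05 ± 0.42 (SE, n = 2 and 2, edgeR adjusted p = 0.000284). This region was intronic, 24 kb from the TSS, and was not the one that holds the printed GRE. In the Gstm cluster, of glutathione S-transferase genes, an intronic region of Gstm2 had 3.78 and 4.98 RPKM in Vehicle against 14.4 and 21.4 in Dex (log2 2.04 ± 0.44, adjusted p = 0.00082). At Mgll, the monoacylglycerol lipase gene, the GRE region shown above had 5.42 and 10.7 RPKM in Vehicle and 23.6 and 32.0 in Dex (log2 1.81 ± 0.45, adjusted p = 0.00373). The Vehicle replicates were far apart here, yet both stayed below the Dex libraries.

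The cluster called by Igfbp1, encoding an insulin-like growth factor binding protein, had 1 shared region, which was nearest to the start of the neighbouring gene Gm11985, with 6.76 and 5.76 RPKM in Vehicle and 16.1 and 19 in Dex (log2 1.48 ± 0.43). The Sdsl cluster, which includes the serine dehydratase gene Sds, had 4.58 and 4.28 against 11.6 and 14.9 (log2 1.58 ± 0.41). The Gadd45g cluster of 7 regions, with 2 shared, had 2.95 and 4.45 against 9.37 and 12.8 (log2 1.59 ± 0.44). Iqch, Dop1b and Atoh8 were also among the 10 largest, with log2 differences of 1.46 to 1.64 and no overlap between the groups. The Nr5a2 cluster, at the gene of a nuclear receptor of bile acid synthesis, also passed, with 1 shared region of 12 (2.57 and 3.83 against 7.20 and 9.47 RPKM).

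The clusters given next, each with several shared regions, had smaller summed log2 differences than those named above. Most of those above were named for their large increases, so clusters are not compared here by their number of shared regions. At Fkbp5 the 3 shared regions together had 6.38 and 10.9 RPKM in Vehicle and 17.4 and 24.6 in Dex (log2 1.29 ± 0.41, edgeR adjusted p = 0.024). All 3 had a positive value, 0.93 to 1.5, of which 1 passed the test. At Alb the 5 shared regions had 2.52 and 2.17 RPKM in Vehicle and 4.22 and 6.62 in Dex (log2 1.2 ± 0.43, adjusted p = 0.049), and 4 passed singly. One of these, at -29.6 kb, was weak, with 1.62 and 0.33 RPKM in Vehicle and 2.40 and 3.78 in Dex, from 47 and 75 Dex reads. Another, at -10.8 kb, had 3.41 and 3.22 RPKM in Vehicle and 3.38 and 9.35 in Dex, so its groups overlapped and Dex replicate 2 alone was high. The region that did not pass, at -21.5 kb, had 1.98 and 2.96 in Vehicle and 2.51 and 3.78 in Dex, also with overlapping groups. Gpt2, encoding an alanine aminotransferase, had 4.37 and 4.64 against 9.31 and 11.9 (log2 1.24 ± 0.42, adjusted p = 0.0374). At G6pc the summed value missed the threshold (log2 1.04 ± 0.43, adjusted p = 0.0826), while the 2 GRE regions passed singly: the one at -6.63 kb had 5.02 and 4.93 RPKM in Vehicle against 8.99 and 11.9 in Dex, and the one at -5.19 kb 5.19 and 7.09 against 12.8 and 13.5. At Tat 2 of 3 shared regions passed, and the strongest had 4.23 and 6.79 against 11.2 and 18. The Hpd GRE region passed as well, with 6.12 and 6.64 against 16.1 and 17.8 (log2 1.41 ± 0.45, adjusted p = 0.0257).

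At other named clusters the summed values did not pass the test. Zbtb16 had 5 shared regions with 8.58 and 11.7 RPKM in Vehicle and 11.4 and 17.8 in Dex, so the groups overlapped, and all 5 had log2 values of 0.38 to 0.67 that did not pass. At the fibrinogen genes 6 shared regions had 4.09 and 6.70 against 6.91 and 9.54 (log2 0.61 ± 0.40, edgeR adjusted p = 0.317). Tsc22d3 had 3.84 and 6.36 against 6.06 and 7.72, again with overlapping groups, and its 2 shared regions were both GRE regions. Ptpn1, the second strongest cluster, had 13.2 and 21.1 against 19.3 and 27.2, with members on both sides of 0. Its strongest region had 29.7 and 52.0 RPKM in Vehicle against 25.9 and 38.1 in Dex (log2 -0.35 ± 0.34), while the region at -78.7 kb passed the test upward, with 6.36 and 7.79 against 18.2 and 26.2 (log2 1.66 ± 0.46, edgeR adjusted p = 0.0112). The Rbm47 and Shb clusters had log2 values of 0.40 ± 0.42 and 0.41 ± 0.41, which turned to -0.050 and -0.011 with TMM scaling. The sign at Tsc22d3 and Ptpn1 also turned when libraries were scaled by their reads per kb of shared regions. A value that misses the threshold with 2 libraries per group does not show equal binding.

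At Sfi1 the Dex and Vehicle libraries were close. The 9 shared regions had 16.1 and 16.3 RPKM in Vehicle and 14.6 and 14.7 in Dex (log2 -0.14 ± 0.27), and its region with the highest Dex signal had 29.1 and 36.2 in Vehicle against 26.8 and 25.6 in Dex. All 4 libraries were high there, and the Dex values lay below the Vehicle values by less than the SE. Mid1 had 7.51 and 10.6 in Vehicle and 8.56 and 5.16 in Dex (log2 -0.40 ± 0.32). The median share of repeat-masked bases in a member was 30.5% at Sfi1 and 16.2% at Mid1, against 8.44% over all members. Whether repeated sequence plays a part in these values was not tested. The lowest log2 difference was at Lrp1, which encodes a lipoprotein receptor, with 1 shared region at 3.6 and 6.45 RPKM in Vehicle and 3.15 and 3.21 in Dex (log2 -0.61 ± 0.36).

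**Figure D5:**
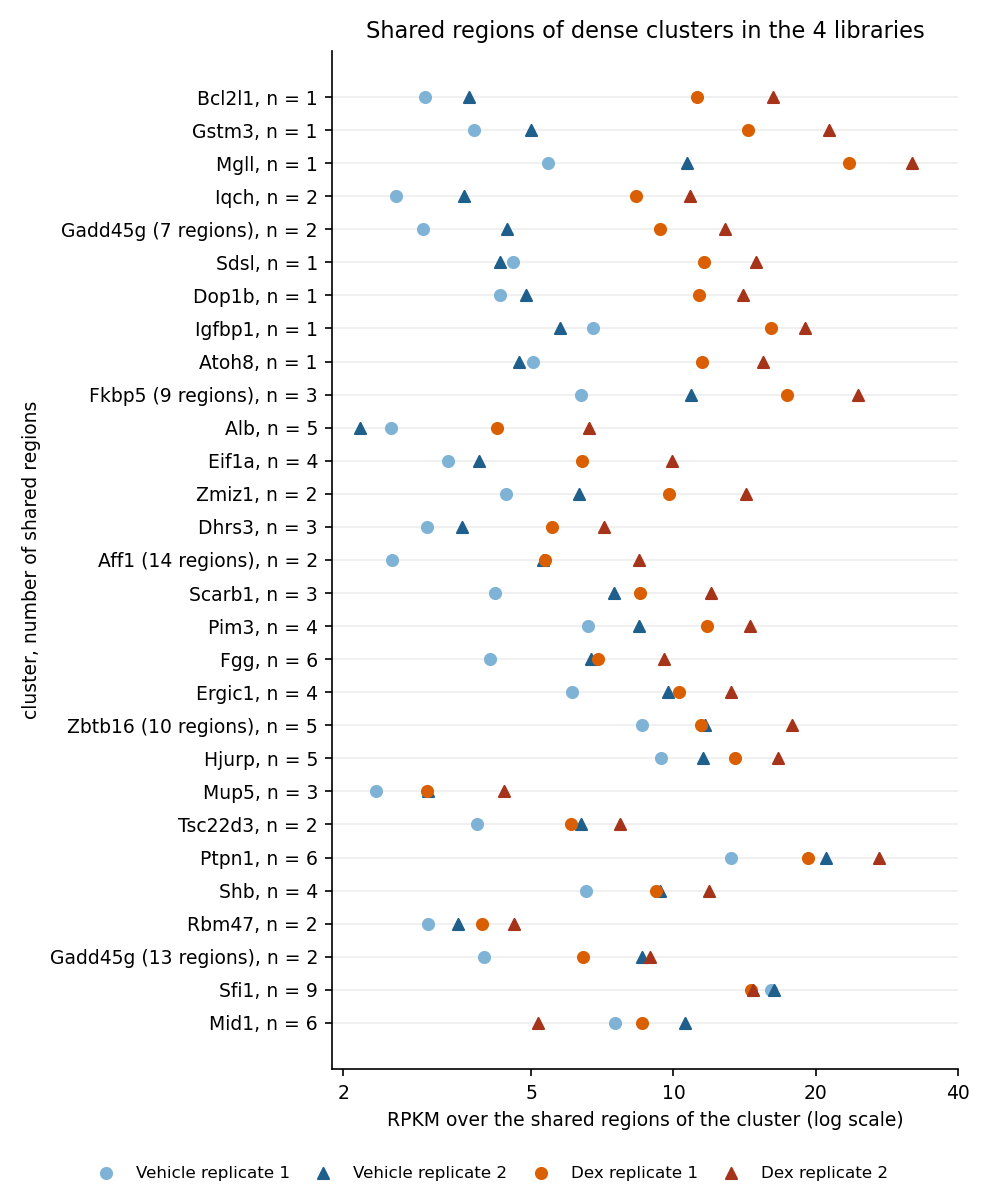
RPKM (log scale) over the shared regions of named clusters. Blue points are Vehicle replicates 1 and 2, and orange and dark red points are Dex replicates 1 and 2. Shown are the clusters with most members, most signal or the largest differences, with 1 left out. Those named for the direct glucocorticoid targets and Mid1 are shown as well. Clusters are ordered by the log2 difference, with the number of shared regions beside the name. Both Dex points lie right of both Vehicle points from Bcl2l1 to Dhrs3. The groups interleave at Zbtb16, Tsc22d3, Ptpn1, Shb, Mup5, Mid1 and the Gadd45g cluster of 13 regions. At Sfi1 both Dex points (14.6 and 14.7) lie left of the Vehicle points (16.1 and 16.3).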

How the data were processed

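GR ChIP-seq of mouse liver was analysed in 2 ZT18 Vehicle and 2 ZT18 Dex libraries, grouped by sample title. Per the submitters' processing notes and the study's methods, reads were aligned to mm10 with Bowtie 1.1.0 and SAMtools 1.2, regions were called with MACS2 2.1.1, once per treatment from its libraries of both time points, and regions in the mm10 blacklist were removed. The authors deposited whole read counts per region and library, not normalized. The RPKM values deposited by the authors are these counts scaled to region length and library total, from which library totals were recovered. Spike-in chromatin was added, but no scaling factor is given in the sources used here. The 4 tables of ZT6 libraries (20 value columns) were not used. Whether libraries came from different animals is not labelled, and p-values reflect only the variation among these samples, which may be technical.

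Regions were overlapped with bedtools 2.31.1 (1 bp), annotated with GENCODE M21 and read from the GRCm38.p6 genome of RefSeq. Region coordinates are as in the files, and sequence windows count from 1. Similar regions were found with blastn 2.17.0. Shared regions with at least 10 reads in at least 2 libraries were tested with edgeR 4.0.16 (R 4.3.3, quasi-likelihood, Benjamini-Hochberg adjustment over all regions or loci, no composition scaling), and DESeq2 1.42.0 was an alternative. With infinite prior degrees of freedom, an SE comes from the common trend and not from a region's own replicates. The fit was tested on simulated counts. An exact test of 2 against 2 libraries cannot go below p = 0.33. Intervals cover counting error only.

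Named clusters were the 12 with most members, the 8 with most Dex RPM, the 6 densest, the 10 with the largest differences each way past the test with groups apart (no decrease met this), 5 each without and with complete vehicle overlap (1 met the latter), and up to 3 for each gene list. Some items that the rule or the lists take in are not reported here. Features named outside this rule were chosen after their values were seen. The members and lists were chosen with earlier results of these data known. The alternatives were other scalings, widths, overlaps, chaining distances, sizes, motif and promoter windows, a replicate block and leaving out each library.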

Additional observations from a re-analysis of the deposited data

How the results depend on the processing

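The number of clusters depends on the chaining rule. With centres at most 5, 10 or 25 kb apart there were 14, 273 and 1115 clusters with 86, 1952 and 9719 regions. Chains of 5 or more gave 809 (5158 regions) and of 8 or more 153 (1474), merging regions within 1 kb 284 (2060), regions at or above the median Dex RPKM alone 223 (1607) and the vehicle set 3 (23). Members with a GRE were 1.92% in a 100 bp window, 5.24% over the whole region and 0.240% for the strict GRE. Members over a promoter were 17.2% for 500 bp upstream to 100 bp downstream and 15.6% for protein-coding transcripts, and 17.6% had at least 50% of their length covered by a vehicle region.

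Members called higher and lower were 74 and 11 with TMM scaling, 66 and 7 with DESeq2, 56 and 13 with summed reads per kb of shared regions as library size (chosen after seeing the data) and 596 and 2 without width correction. Under the main scaling they were 126 and 0. With the per-kb scaling the median log2 difference was -0.12 over all shared regions and 0.19 in members. Clusters called higher were 308 without width correction, 3 for chains at 5 kb and 118 at 25 kb. Clusters called lower were 5 with TMM scaling, 5 with the per-kb scaling and 4 with DESeq2. Leaving out 1 library gave fewer calls, with the lone library of the reduced group taken to vary like the others. The median log2 difference was then 0.50 to 0.94 in members and 0.49 to 0.97 in clusters. The planned scaling by summed reads without region width was not run, since width is already in the offset. Among the 59 named clusters with a shared region, none of which passed the test when its sign turned, the log2 difference changed sign in 5 with TMM scaling, 4 with DESeq2 and 9 with the per-kb scaling. With TMM scaling it was -0.089 at the Gadd45g cluster of 13 regions, -0.050 at Rbm47, -0.011 at Shb, -0.029 at Sox9 and -0.32 at Ttc39c. With DESeq2 it was -0.080 at Gadd45g, -0.034 at Rbm47, -0.011 at Sox9 and -0.31 at Ttc39c. With the per-kb scaling it was -0.17 at Gadd45g, -0.068 at Mup5, -0.044 at Per2, -0.065 at Ptpn1, -0.14 at Rbm47, -0.099 at Shb, -0.12 at Sox9, -0.042 at Tsc22d3 and -0.41 at Ttc39c. Leaving out 1 library gave -0.16 (without Vehicle replicate 1) to 0.95 at Gadd45g and -0.21 (likewise) to 0.41 at Ttc39c.

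The replicate numbers were also fitted as a replicate block, which gave 441 members higher and 2 lower and 263 clusters higher and 2 lower. Deviations of same-numbered libraries correlated at 0.078 over 5665 regions. With 2 pairs and no label for a shared batch, the numbers were not taken to pair the samples. Depth limits single regions, with a median of 130 and 165 reads per member in Dex replicates 1 and 2.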

Other observations

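A few further clusters had values at or below 0. A cluster of 7 regions on chromosome 13 was nearest to Hist1h4h, a histone H4 gene, with 3 members sharing sequence with other regions, and its 2 shared regions had 3.18 and 3.87 RPKM in Vehicle and 2.59 and 3.0 in Dex (log2 -0.33 ± 0.41, edgeR adjusted p = 0.642). At Fabp1, which encodes the liver fatty acid binding protein, the groups overlapped, with 3.06 and 6.09 in Vehicle and 3.45 and 5.53 in Dex. At Adk, the adenosine kinase gene, the 1 shared region differed more between replicates than between groups, with 11.3 and 21.6 in Vehicle and 11.3 and 20.6 in Dex. These clusters were chosen after their values were seen, and no explanation was tested.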
